A study of Mus musculus with 22 samples.

Results

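The 32 genes described here encode the chain of proteins that carries a signal from the B-cell receptor (BCR) to NF-κB. They were listed by name, as members of this pathway, with earlier results of these data known. The transcripts that the GENCODE annotation of the mouse assigns to each gene were summed per gene. All 32 genes were found among the 17023 genes of the count table, through 166 of its 62492 transcripts.

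The BCR is a membrane immunoglobulin held together with the signalling chains CD79A and CD79B. When it binds antigen, the Src-family kinases LYN, BLK and FYN phosphorylate the CD79 tails, SYK docks onto them, and SYK and BTK activate the phospholipase PLCγ2 on the adaptor BLNK. The lipid and calcium signals that follow activate NFAT factors and the kinase PKCβ, which engages BCL10 and MALT1 and, through TAK1, the IKK complex. IKK marks the IκB proteins for degradation and so frees NF-κB. IκBε, the product of Nfkbie, is such an inhibitor, and CLL cells are known for their dependence on BCR signals.

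RNA had been sequenced from 22 samples of TCL1-355 TKO cells, a leukemia cell line of the mouse from the Eμ-TCL1 model, in which the human oncogene TCL1 is driven in B cells. All samples share the TCL1 transgene, an autoreactive BCR that binds phosphatidylcholine, and biallelic lesions that had been introduced into the line, those of CDKN2A and CDKN2B among them. In NFKBIE-ko cells exon 2 of Nfkbie had been cut with Cas9, and NFKBIE-wt cells had been mock-edited. Of each genotype there were 4 samples from the spleen, 4 from the peritoneal cavity (PC) and 3 from culture in vitro. For the spleen and PC samples, the cells of each genotype had been grown for 21 days in a mouse of their own and then injected into C57BL/6 mice, from which they were recovered 10 days later without purification, so that normal cells of the host were left in. The culture samples came from leukemic spleens of 3 mice and had been kept apart for 2 weeks in vitro. Since each genotype passed through its own donor mouse, genotype and donor cannot be told apart in vivo. Nothing in the sample labels says which spleen and PC samples came from the same recipient.

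The libraries held between 24036763 and 26581304 estimated counts, and levels are given as CPM, counts scaled to a common library size with TMM factors. A panel of 17 B-lineage genes summed to between 4220 and 11200 CPM over the libraries, and none of these genes was at 0 in a whole group. A pair of NFKBIE-wt libraries went against their labels. The library labelled NFKBIE-wt spleen replicate 4 had a correlation of log CPM over 13538 genes of 0.923 to 0.944 with the other NFKBIE-wt spleen libraries and of 0.977 to 0.982 with NFKBIE-wt culture replicates 1 and 2, and its erythroid genes summed to 6.82 CPM against 284 to 2060 in the others of its group. The library that carries the label of NFKBIE-wt in vitro replicate 3 had a correlation of 0.973 to 0.981 with NFKBIE-wt spleen replicates 1 to 3 and of 0.911 to 0.934 with the other cultures of its group, and its erythroid genes summed to 1420 CPM against 11.7 and 20.5. Both were kept under their labels, and the counts of members called in the comparisons that use them are also given without them. The PC comparison of the genotypes uses neither.

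The targeted gene was checked first. Nfkbie was at 67.8, 81.9, 77.5 and 92.6 CPM in the NFKBIE-wt PC samples and at 65.1, 47.1, 56.6 and 48 CPM in the NFKBIE-ko PC samples. It was lower in every NFKBIE-ko sample of the PC, by 0.56 ± 0.12 on the log2 scale, an edgeR log2 fold change of -0.56 (adjusted p = 0.00375). Edited transcripts are still counted, so RNA levels check the edit only in part: in the spleen, with all libraries, the log2 difference was 0.19 ± 0.27 (adjusted p = 0.729, edgeR) and in culture -0.93 ± 0.33 (adjusted p = 0.516, edgeR). The libraries that stand apart were at 123 CPM in the NFKBIE-wt spleen (71.4 to 76 in the others) and at 53.7 CPM in the NFKBIE-wt cultures (113 and 139 in the others).

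Levels of different genes were compared per transcript length, as TPM (counts per length, scaled to the same sum in each library), over all 22 libraries. Cd79a and Cd79b, the signalling chains of the receptor, led with mean TPM of 1010 and 677. They were followed by Cd81, a tetraspanin of the co-receptor, at 212 TPM, the adaptor Grb2 at 210 TPM and the calcium-driven transcription factor Nfatc1 at 197 TPM. Of the Src-family kinases, Lyn stood at 134 TPM and Blk at 61.7 TPM, and Fyn at 2.02 TPM. Cr2, the complement receptor that lowers the threshold of the BCR, was at 2.32 TPM, and Vav3 had the lowest mean at 0.89 TPM, although in NFKBIE-ko PC it stood at 3 TPM, above Cr2 at 0.467 TPM. Within genes, Rasgrp3 ranged from 3.74 to 157 TPM between libraries, whereas Btk stayed between 67 and 109 TPM. Neighbours in this order, such as Cd81 and Grb2 or Btk and Prkcb (82.8 and 82.1 TPM), had overlapping ranges and cannot be ordered.

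**Figure D1:**
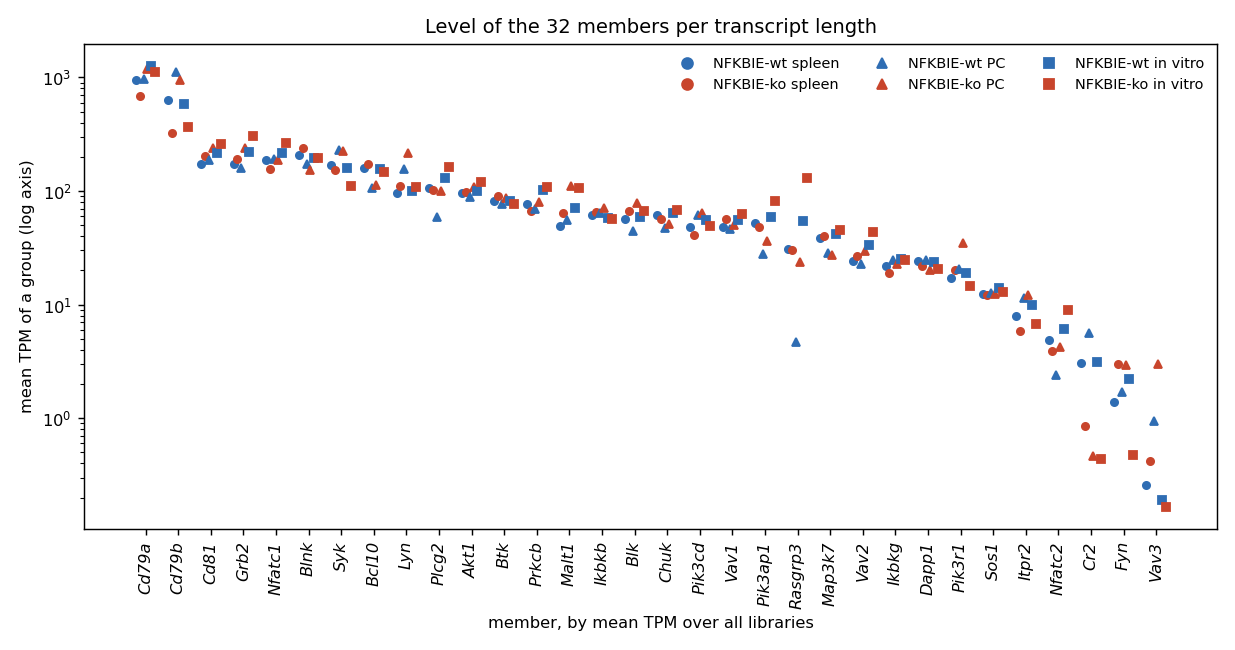
Mean TPM of each of the 32 members (horizontal axis, ordered by the mean over all libraries) in each of the 6 groups, on a log axis; blue marks NFKBIE-wt, red NFKBIE-ko, and the shape of the symbol the compartment. Cd79a and Cd79b lie highest, and Nfatc2, Cr2, Fyn and Vav3 lie below 10 TPM in every group.

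The stretches just before the start of the most abundant transcript were read from GRCm39 for 2 members that fell and 2 that rose between the genotypes. With all libraries and an edgeR adjusted p below 0.05, the steepest falls were those of Cr2 (log2 fold change -3.35, PC) and Cd79b (-0.94, spleen). The steepest rises were those of Rasgrp3 (2.27) and Vav3 (1.6), both in the PC. In the PC, the change of Cd79b was small (-0.25), and Dapp1 fell further (-0.29). None of the 250 bases of each stretch lies in an annotated exon. Capitals mark matches to CAGGTG, the E-box-type motif, on either strand. The Cr2 stretch is chr1:194859092-194859341 (minus strand), that of Cd79b chr11:106205589-106205838 (minus), that of Rasgrp3 chr17:75772024-75772273 (plus) and that of Vav3 chr3:109247406-109247655 (plus), each written 5′ to 3′ along the gene:
Cr2: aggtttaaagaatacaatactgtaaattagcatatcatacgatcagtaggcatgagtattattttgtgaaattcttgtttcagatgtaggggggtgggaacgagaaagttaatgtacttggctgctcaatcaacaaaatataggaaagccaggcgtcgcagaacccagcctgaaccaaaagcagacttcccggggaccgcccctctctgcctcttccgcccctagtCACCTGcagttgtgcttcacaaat
Cd79b: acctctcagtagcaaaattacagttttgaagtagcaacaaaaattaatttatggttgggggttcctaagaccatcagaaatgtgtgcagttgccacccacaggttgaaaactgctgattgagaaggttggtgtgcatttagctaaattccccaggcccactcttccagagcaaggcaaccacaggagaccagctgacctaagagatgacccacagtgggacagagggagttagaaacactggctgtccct
Rasgrp3: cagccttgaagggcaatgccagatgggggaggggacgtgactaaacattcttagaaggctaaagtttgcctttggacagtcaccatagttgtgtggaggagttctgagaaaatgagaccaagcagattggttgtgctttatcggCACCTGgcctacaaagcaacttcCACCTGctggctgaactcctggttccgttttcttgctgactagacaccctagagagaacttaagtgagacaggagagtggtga
Vav3: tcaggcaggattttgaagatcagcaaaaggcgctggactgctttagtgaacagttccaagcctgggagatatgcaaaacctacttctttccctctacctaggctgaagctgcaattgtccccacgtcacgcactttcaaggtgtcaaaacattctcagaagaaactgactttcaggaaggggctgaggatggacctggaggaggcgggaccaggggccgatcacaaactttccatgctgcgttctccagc

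The same 250 bases were searched for 4 motifs on both strands in all 17023 genes. The NF-κB consensus was present before 5.15% of all genes and before 1 of the 32 members, Bcl10. The octamer ATGCAAAT, known from immunoglobulin promoters, was present before 1.89% of all genes and before Blnk and Prkcb, and the ETS-type motif GAGGAAGT before 2.27% of all genes and 0 members. CAGGTG was present before 17.2% of all genes and before 10 members, Cr2, Blk, Syk, Plcg2, Vav1, Pik3ap1, Grb2, Malt1, Nfatc2 and Rasgrp3. A match is a string of letters and not a measured site. The matches of Bcl10 (chr3:145629767-145629795, plus strand, within an annotated exon) and of Blnk (chr19:40982984-40983011, minus strand) are shown with the motif in capitals:
Bcl10: gcgaaggcgGGGAGATCCCgctaaactga
Blnk: ccatggcttaATGCAAATgagcagaaag

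In the PC, more of the pathway was higher than lower in RNA level in the NFKBIE-ko samples, and its steepest change was the fall of Cr2. Of 32 members, 16 rose and 4 fell (edgeR's quasi-likelihood test, Benjamini-Hochberg adjusted p below 0.05 over 12642 genes). That is 62.5% of the members called, where 43.4% of all genes tested were called, 22.5% of them as higher and 20.9% as lower. The median log2 fold change of the members was 0.21, against -0.01 for all genes. The members were chosen with earlier results of these data known, so neither comparison with all genes is a test of the pathway. At an unadjusted p below 0.05 there were 23 members, and the share of all genes at that rule is not given here. Groups did not overlap for 15 members that were higher and 3 that were lower, against 41.7% of all genes in either direction (21.8% higher and 19.9% lower). Beyond a log2 fold change of 1, 2 members were higher (Rasgrp3 and Vav3) and 1 lower (Cr2). DESeq2 also called 20 members, with no share of all genes given for it. When each of the 8 libraries was left out in turn, the call was lost in 7 fits for Btk, in 5 for Cd79b, in 3 for Ikbkg and in 2 for Fyn, and the log2 fold changes of Cr2 stayed between -3.44 and -3.21.

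Marker genes of several cell types differed between the same samples. In NFKBIE-ko cultures the T-cell list still summed to 330 to 359 CPM and the plasma-cell list to 897 to 1100 CPM. These sums can thus not be taken as host cells alone. Myeloid genes summed to between 716 and 2030 CPM in NFKBIE-wt PC and to between 4210 and 6130 CPM in NFKBIE-ko PC, with 14 of 18 genes higher and 1 lower. Granulocyte genes summed to 164 to 475 CPM and to 31.7 to 48.2 CPM, with 6 of 8 genes tested lower, and cytotoxic and NK-cell genes to 26.2 to 62.3 CPM and to 57 to 101 CPM, with 9 of 14 higher and 1 lower. The T-cell list had 10 of 18 genes higher and 3 lower, while its sum went from 1320 to 1590 CPM down to 836 to 1020 CPM. Erythroid genes summed to 6.2 to 73.9 CPM and to 4.32 to 73.5 CPM, stromal and endothelial genes to 79.8 to 106 CPM and to 107 to 128 CPM with 2 of 6 genes tested higher and 4 lower, and plasma-cell genes to 1030 to 1250 CPM and to 946 to 997 CPM with 3 of 7 lower. The B-lineage panel summed to 4820 to 5360 CPM and to 6040 to 6530 CPM, with 3 of 16 genes tested higher and 5 lower. The part of these cells in the differences given here was not tested, and in unpurified tissue a change in the number of cells of a type and a change in RNA per cell cannot be told apart.

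**Figure D2:**
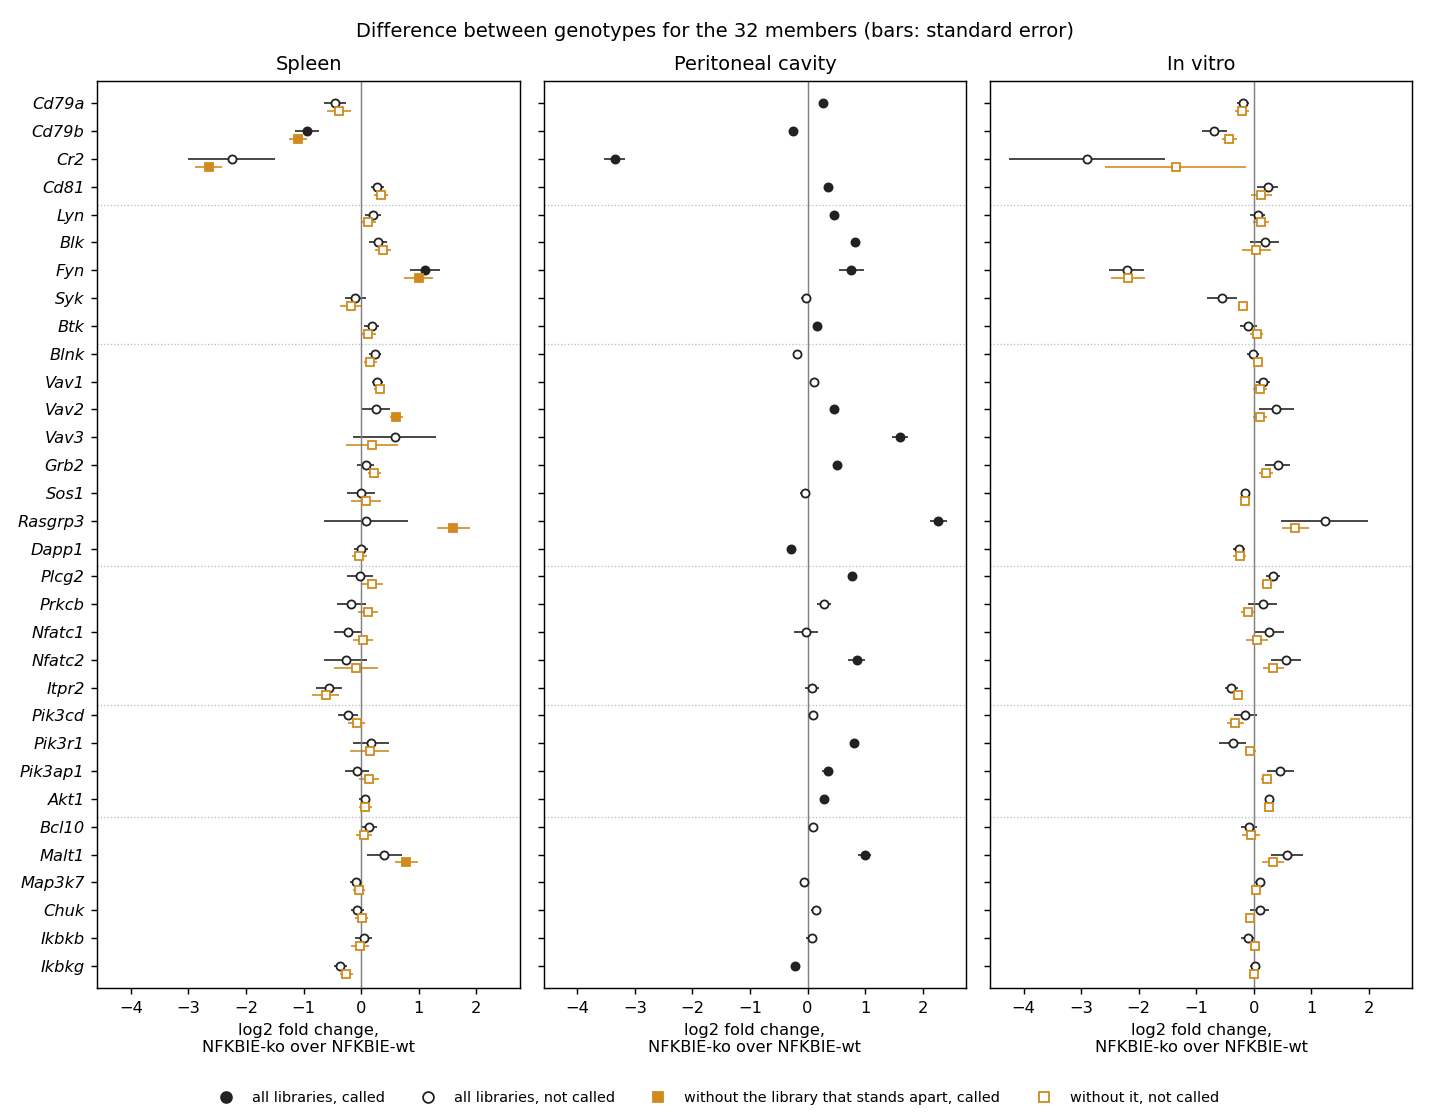
Log2 fold change of NFKBIE-ko over NFKBIE-wt (horizontal axis, with standard error) for the 32 members in the spleen, the PC and in vitro, grouped by role with dotted lines; filled symbols passed the test, and orange squares leave out the library that stands apart. In the PC, Cr2 lies at -3.35 and Rasgrp3 at 2.27, and in the spleen Rasgrp3 moves from 0.08 to 1.60 when replicate 4 of NFKBIE-wt is left out.

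The receptor and its co-receptor split in the PC. Cr2 was at 8.72, 14, 10.0 and 10.7 CPM in NFKBIE-wt and at 0.953, 1.07, 1.16 and 1.08 CPM in NFKBIE-ko. The lowest NFKBIE-wt sample was thus far above the highest NFKBIE-ko sample. The log2 fold change was -3.35 ± 0.18 (SE, n = 4 per genotype), or 10.2-fold lower (adjusted p = 7.32e-07, edgeR). Of the Cr2 counts, 35.6% lay in a protein-coding transcript that fell (-3.16 ± 0.83, edgeR adjusted p = 0.0431). A retained-intron transcript with 27.1% also fell (-3.32 ± 0.77, edgeR adjusted p = 0.0264). The canonical coding transcript held 13.1% and did not pass (-2.2 ± 1.11, edgeR adjusted p = 0.264). Cd79b was at 974, 870, 950 and 994 CPM in NFKBIE-wt and at 697, 792, 826 and 878 CPM in NFKBIE-ko. It fell by little, with an overlap of 1 sample (log2 fold change -0.25 ± 0.08, edgeR adjusted p = 0.0321). Its partner Cd79a rose from between 830 and 940 CPM to between 1010 and 1160 CPM (log2 fold change 0.26 ± 0.07, edgeR adjusted p = 0.0135). Cd81 rose by 0.35 ± 0.05, again without overlap. The signalling pair of the receptor therefore moved in opposite directions by about the same small amount, and the complement receptor moved far more than either.

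Of the kinases next to the receptor, 4 of 5 rose. Lyn, the Src-family kinase that both starts and restrains BCR signals, was at 345, 329, 318 and 298 CPM in NFKBIE-wt and at 449, 446, 450 and 444 CPM in NFKBIE-ko. The NFKBIE-ko samples lay close together and above all NFKBIE-wt samples (log2 fold change 0.46 ± 0.07, edgeR adjusted p = 0.000262). Blk was at 58.4, 69.4, 56.8 and 56.8 CPM against 104, 100, 112 and 114 CPM in NFKBIE-ko, again without overlap (0.83 ± 0.08, adjusted p = 2.08e-05, edgeR). Fyn, at 3.2 to 6.48 CPM in NFKBIE-wt and 6.33 to 8.75 CPM in NFKBIE-ko, overlapped between the genotypes (0.76 ± 0.22, edgeR adjusted p = 0.0178). Btk, the kinase inhibited by ibrutinib, rose by 0.16 ± 0.06 (edgeR adjusted p = 0.0371). Syk, at 623 to 812 CPM in NFKBIE-wt and 659 to 722 CPM in NFKBIE-ko, did not pass the test (log2 difference -0.03 ± 0.08, edgeR adjusted p = 0.781).

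Among the adaptors and exchange factors, 4 of 8 rose and 1 fell, with log2 differences from -0.29 to 2.27. Rasgrp3, which turns on RAS downstream of diacylglycerol, was at 10.3, 15.8, 10.7 and 11.2 CPM in NFKBIE-wt and at 63.8, 67.1, 49.3 and 51.1 CPM in NFKBIE-ko. The ranges were far apart, and the difference was 4.82-fold (log2 fold change 2.27 ± 0.15, edgeR adjusted p = 3.26e-06). Vav3, a RAC exchange factor, was at 2.77, 2.48, 2.69 and 3 CPM in NFKBIE-wt and at 7.85, 7.88, 9.3 and 8.4 CPM in NFKBIE-ko. It was 3.04-fold higher without overlap (1.60 ± 0.14, edgeR adjusted p = 1.12e-05), at a mean of 0.942 TPM in NFKBIE-wt PC. Its relative Vav2 rose by 0.46 ± 0.07, with 56.8 to 69.5 CPM in NFKBIE-wt and 82.7 to 92.8 CPM in NFKBIE-ko. Vav1, the member of the family with the highest level per length, was at 108 to 116 CPM and 119 to 127 CPM, and did not pass the test (0.12 ± 0.06, edgeR adjusted p = 0.0979). The 3 exchange factors of the VAV family were thus ordered in their change opposite to their level. Grb2 rose by 0.51 ± 0.07 and Dapp1, an adaptor that binds PI3K lipids, fell (log2 fold change -0.29 ± 0.07). Blnk (-0.18 ± 0.07) and Sos1 (-0.05 ± 0.09) did not pass.

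Plcg2, whose product PLCγ2 acts directly below BTK, was at 145, 155, 162 and 142 CPM in NFKBIE-wt PC and at 272, 276, 246 and 243 CPM in NFKBIE-ko PC. Every NFKBIE-ko sample was above every NFKBIE-wt sample, by 1.71-fold (log2 fold change 0.77 ± 0.07, edgeR adjusted p = 1.72e-05). Nfatc2 rose likewise, from between 7.21 and 10.7 CPM to between 14.1 and 19.1 CPM (0.85 ± 0.14, edgeR adjusted p = 0.000829). Summed per gene, Prkcb (0.29 ± 0.12), Itpr2 (0.08 ± 0.12) and Nfatc1 (-0.03 ± 0.21) did not pass. For Nfatc1 a single NFKBIE-ko library at 764 CPM stood above the other 3, which lay between 399 and 439 CPM.

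Of the PI3K and AKT genes, 3 of 4 rose. Pik3r1, the regulatory subunit of PI3K, was at 64.4, 68, 68.9 and 69.5 CPM in NFKBIE-wt and at 118, 107, 121 and 127 CPM in NFKBIE-ko, 1.74-fold higher without overlap (0.80 ± 0.07, edgeR adjusted p = 9.33e-06). Pik3ap1, the B-cell adaptor that brings PI3K to the membrane, rose by 0.35 ± 0.10 and Akt1 by 0.28 ± 0.06. The catalytic subunit Pik3cd did not pass (0.09 ± 0.08, edgeR adjusted p = 0.426).

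At the end of the chain, in the group of BCL10, MALT1 and IKK, 1 of 6 rose and 1 fell. Malt1, the protease and scaffold of the complex, was at 120, 166, 154 and 139 CPM in NFKBIE-wt and at 357, 280, 257 and 263 CPM in NFKBIE-ko, without overlap (0.99 ± 0.12, 1.99-fold, edgeR adjusted p = 0.000134). Ikbkg, the regulatory subunit of IKK, fell from between 54.8 and 61.8 CPM to between 50.1 and 53.4 CPM (log2 fold change -0.21 ± 0.06, edgeR adjusted p = 0.0202). The IKK kinases Chuk (0.14 ± 0.08) and Ikbkb (0.07 ± 0.09), Bcl10 (0.09 ± 0.09) and Map3k7 (-0.07 ± 0.07) did not pass. The exons of Ikbkg, Pik3cd and Akt1 overlap genes of the opposite strand, and whether counting used strand was not given in the sources used here.

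**Figure D3:**
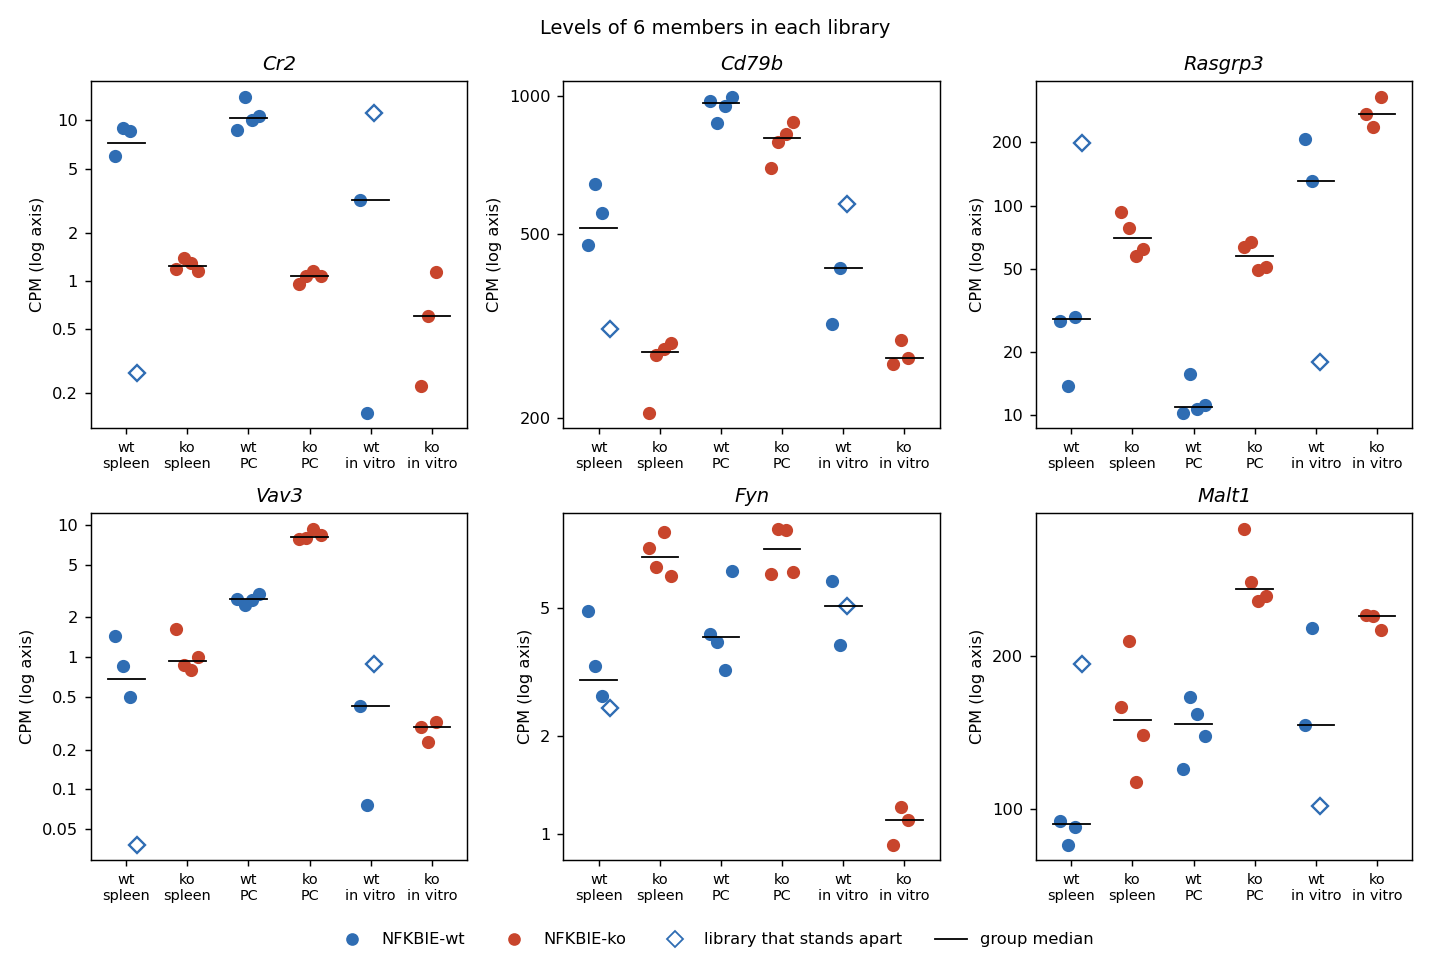
CPM of 6 members in each of the 22 libraries (log axis), by genotype and compartment; open diamonds mark the pair of libraries that stand apart, and black lines group medians. Cr2 is lower and Rasgrp3, Vav3 and Malt1 are higher in all 4 NFKBIE-ko PC samples than in any NFKBIE-wt PC sample, and for Rasgrp3 both open diamonds lie outside the range of the other samples of their group.

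In the spleen, with all 8 libraries, 1 member rose and 1 fell. That is 6.25% of the members, against 5.48% of 12219 genes tested (2.32% higher and 3.16% lower), and the median of the members was 0.02. Groups did not overlap for 4 members that were higher and 2 that were lower, against 16.2% of all genes (8.72% higher and 7.5% lower). Cd79b was at 475, 644, 555 and 311 CPM in NFKBIE-wt and at 205, 274, 282 and 291 CPM in NFKBIE-ko. Every NFKBIE-ko sample was below every NFKBIE-wt sample (log2 fold change -0.94 ± 0.21, 1.91-fold lower, edgeR adjusted p = 0.0382). Fyn was at 4.87, 3.3, 2.66 and 2.45 CPM in NFKBIE-wt and at 7.65, 6.68, 8.56 and 6.27 CPM in NFKBIE-ko, again without overlap (1.11 ± 0.26, 2.16-fold, edgeR adjusted p = 0.0405). FYN is also a kinase of T and NK cells. Cytotoxic and NK-cell genes summed to between 3.26 and 22.3 CPM in NFKBIE-wt spleen and to between 72.1 and 163 CPM in NFKBIE-ko spleen, with 5 of 13 genes higher. T-cell genes summed to 507 to 1090 CPM and to 820 to 1040 CPM, with 1 of 18 higher. Myeloid genes summed to 49.3 to 123 CPM and to 131 to 450 CPM, with 0 of 15 higher, and plasma-cell genes to 976 to 1660 CPM and to 986 to 1200 CPM, with 4 of 7 lower. The NFKBIE-wt sums of 3.26, 507, 49.3 and 1660 CPM are those of replicate 4, the library that stands apart. In the other NFKBIE-wt spleen libraries these lists summed to 16.2 to 22.3, 985 to 1090, 76.9 to 123 and 976 to 1500 CPM. The part of these cells in the difference of Fyn was not tested. Leaving out each of the 8 libraries in turn kept the call of Cd79b in 1 fit and that of Fyn in 2.

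When NFKBIE-wt spleen replicate 4, as labelled, was set aside, 4 members rose and 2 fell in the spleen, against 12.2% of 12470 genes (5.47% higher and 6.69% lower). Cr2 was at 5.96, 8.92 and 8.52 CPM in the remaining NFKBIE-wt samples, at 0.268 CPM in the library left out, and at 1.19, 1.39, 1.29 and 1.15 CPM in NFKBIE-ko. The library left out was thus the only NFKBIE-wt spleen sample below the NFKBIE-ko samples, and Cr2 fell in the 7 others (log2 fold change -2.65 ± 0.23, 6.26-fold lower, edgeR adjusted p = 0.000394), compared with -2.25 ± 0.76 (edgeR adjusted p = 0.123) with it. Rasgrp3 was at 28.2, 13.8 and 29.5 CPM, at 198 CPM in the library left out, and at 93.3, 78.4, 57.3 and 62.4 CPM in NFKBIE-ko. Its log2 fold change was 1.60 ± 0.29 without that library (edgeR adjusted p = 0.00907) and 0.08 ± 0.73 with it. Malt1 (0.78 ± 0.20), Vav2 (0.61 ± 0.11) and Fyn (1.00 ± 0.25) also rose and Cd79b fell (-1.10 ± 0.16), with edgeR adjusted p between 0.00319 and 0.0354.

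In culture, 0 of 31 members tested passed, as did 0.0427% of 11722 genes, and Vav3 was too low to be tested. At an unadjusted p below 0.05 there were 5 members, and DESeq2 called 1. The shares of all genes under these rules are not given here, so these counts cannot be set against them. Groups did not overlap for 6 members that were higher and 6 that were lower, against 19.7% of all genes (10.1% higher and 9.61% lower). Fyn was at 6.05, 3.84 and 5.07 CPM in NFKBIE-wt and at 0.925, 1.21 and 1.1 CPM in NFKBIE-ko. All NFKBIE-ko cultures lay below all NFKBIE-wt cultures, at a log2 difference of -2.21 ± 0.30 that did not pass the adjustment (edgeR adjusted p = 0.192). Rasgrp3 was at 208, 131 and 17.9 CPM in NFKBIE-wt and at 272, 237 and 330 CPM in NFKBIE-ko (1.23 ± 0.76, edgeR adjusted p = 0.56), and the low value is that of the library that stands apart. Cr2 ranged from 0.152 to 11.1 CPM among the NFKBIE-wt cultures, which overlapped the 0.222 to 1.14 CPM of NFKBIE-ko. With the labelled replicate 3 of the NFKBIE-wt cultures set aside, 0 members were called and 6 had an unadjusted p below 0.05, with 0.076% of all genes called. The log2 differences were then -2.19 ± 0.30 for Fyn (edgeR adjusted p = 0.119), 0.72 ± 0.24 for Rasgrp3 (edgeR adjusted p = 0.449) and -1.36 ± 1.22 for Cr2 (edgeR adjusted p = 0.737). With all libraries, the common coefficient of variation between replicates was 0.284 in culture, 0.296 in the spleen and 0.148 in the PC. The culture and spleen values include the libraries that stand apart. In the fit of NFKBIE-ko spleen and culture samples, which holds neither, it was 0.177.

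The difference of the genotype effect between compartments was tested in a fit of all 22 libraries. Fyn differed most: its genotype effect was 3.33 ± 0.38 higher on the log2 scale in the spleen than in vitro (edgeR adjusted p = 0.000688, where 0.443% of all genes were called) and 2.98 ± 0.38 higher in the PC than in vitro (edgeR adjusted p = 0.000507, 4.9% of all genes). It was called in these contrasts also without both libraries that stand apart (3.20 ± 0.41, where 0.938% of all genes were called, and 2.96 ± 0.39). In NFKBIE-ko cultures 6 cytotoxic and NK-cell genes and 5 T-cell genes, Cd8a and Trbc1 among them, were at 0, while no gene of these lists was at 0 in the whole group of NFKBIE-wt cultures or in any in vivo group. Cytotoxic and NK-cell genes summed to 19.1, 2.17 and 25.3 CPM in NFKBIE-wt cultures and T-cell genes to 323, 422 and 1190 CPM, the last value being that of the library that stands apart. In NFKBIE-ko cultures the sums were 3.26 to 4.22 CPM and 330 to 359 CPM. The part of these cells in the differences of Fyn was not tested. Between the spleen and the PC, Cd79a had a genotype effect that was 0.72 ± 0.20 lower in the spleen (adjusted p = 0.0416, edgeR, 4.9% of all genes called), a log2 difference of -0.72. The number of members called in this contrast ranged from 0 to 4 when 1 library was left out. Without the libraries that stand apart, Cd79a no longer passed, and Cd79b (-0.84 ± 0.18, edgeR adjusted p = 0.00831) and Blnk (0.35 ± 0.11, edgeR adjusted p = 0.0498) did, against 8.23% of all genes. In the contrast between the PC and culture, Rasgrp3 was then also called (1.55 ± 0.36, edgeR adjusted p = 0.0186, against 6.1% of all genes). Cr2 and Vav3 were not called in any of these tests, although both were far apart between the genotypes in the PC.

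Compartments were compared within each genotype. Spleen and PC samples of a genotype came from the same set of recipient mice. Which of them share a mouse is not known, so the tests treat all samples as independent. Between the PC and the spleen of NFKBIE-ko, 16 members were higher in the PC and 4 lower, 62.5% of the members against 59.8% of all genes (29.7% higher and 30.1% lower). The share of members was close to that of all genes. Vav3 rose most, from 1.62, 0.875, 0.803 and 1 CPM in the spleen to 7.85, 7.88, 9.3 and 8.4 CPM in the PC (log2 fold change 2.95 ± 0.23, edgeR adjusted p = 6.46e-06). Cd79b followed, from 205, 274, 282 and 291 CPM in the spleen to 697, 792, 826 and 878 CPM in the PC (1.60 ± 0.12, edgeR adjusted p = 4.91e-06). The ranges of both genes were far apart. Itpr2, an inositol trisphosphate receptor of calcium stores, rose by 1.29 ± 0.20 and Lyn by 1.05 ± 0.09. Blnk (-0.58 ± 0.08), Bcl10 (-0.52 ± 0.09), Pik3ap1 (-0.35 ± 0.13) and Map3k7 (-0.24 ± 0.07) were lower in the PC.

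In NFKBIE-wt, 6 members were higher in the PC than in the spleen and 3 lower, 28.1% against 28.5% of all genes (14.2% higher and 14.3% lower). With NFKBIE-wt spleen replicate 4 set aside there were 11 and 4, with 35.7% of all genes called (18.3% higher and 17.4% lower). Cd79b (0.94 ± 0.20) and Lyn (0.82 ± 0.13) rose and Rasgrp3 fell (log2 fold change -2.48 ± 0.79, or -0.99 ± 0.26 without that library). Lyn, Cd79b, Syk, Itpr2, Pik3r1 and Ikbkg were higher and Pik3ap1 lower in the PC of both genotypes. Myeloid genes were higher in the PC of both genotypes too, for 17 of 17 tested in NFKBIE-wt and 17 of 18 in NFKBIE-ko. In NFKBIE-ko, 11 of 18 T-cell genes, 8 of 8 erythroid genes and 6 of 8 granulocyte genes were lower in the PC, and in NFKBIE-wt 3 of 17, 3 of 7 and 0 of 8. The part of these cells in the differences was not tested.

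**Figure D4:**
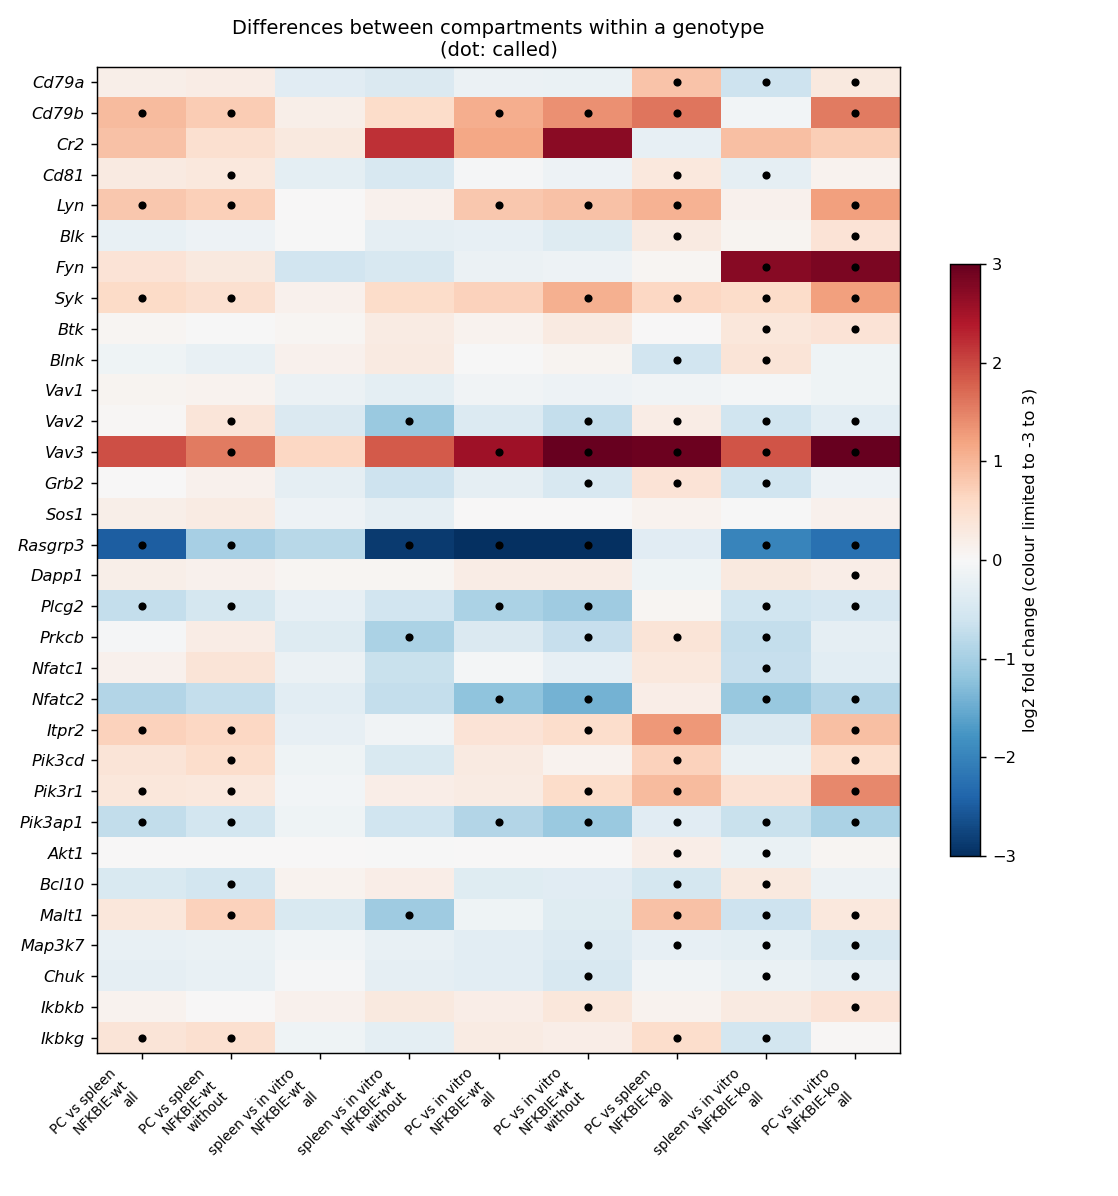
Log2 fold change between compartments within a genotype for the 32 members (rows, by role), for NFKBIE-wt with all libraries and without those that stand apart, and for NFKBIE-ko; red is higher in the compartment named first, and dots mark calls. Vav3 and Cd79b are higher in the PC and Rasgrp3 is lower in vivo than in vitro in most columns.

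Against culture, the unpurified NFKBIE-ko spleen samples had 6 members higher and 15 lower, 65.6% of the members against 38.8% of all genes (20.3% higher and 18.5% lower). Members higher in vivo were Fyn (2.72 ± 0.20), Vav3 (1.88 ± 0.39), Syk, Blnk, Btk and Bcl10. Rasgrp3 was the furthest below culture (log2 fold change -1.97 ± 0.19, edgeR adjusted p = 0.000137), with 57.3 to 93.3 CPM in the spleen and 237 to 330 CPM in culture, and Nfatc2 (-1.14 ± 0.14), Prkcb (-0.71 ± 0.13) and Nfatc1 (-0.68 ± 0.09) followed. Of the 5 genes of the PLC, calcium and NFAT group, 4 were lower in the spleen than in culture. The B-lineage panel was lower in sum as well, at 5300 to 6320 CPM in NFKBIE-ko spleen and 10600 to 11200 CPM in NFKBIE-ko cultures. Of its 16 genes tested, 3 were higher and 6 lower in the spleen. A fall was thus not particular to the members. Genes of host cells were higher in the spleen in the same contrast, with 15 of 18 T-cell, 12 of 13 cytotoxic and NK-cell, 13 of 17 myeloid, 8 of 8 granulocyte and 8 of 9 erythroid genes called, and their part in the differences of the members was not tested. In the PC of NFKBIE-ko, 14 members were above and 7 below culture, 65.6% against 67.7% of all genes (36% higher and 31.8% lower). All 5 proximal kinases were among the 14, from Btk (0.40 ± 0.06) and Blk (0.42 ± 0.06) over Lyn (1.22 ± 0.07) and Syk (1.24 ± 0.06) to Fyn (2.83 ± 0.21). Vav3, at 0.228 to 0.326 CPM in culture, was higher by 4.89 ± 0.20, and 18 of 18 myeloid genes rose in the same contrast. In NFKBIE-ko cultures Vav3 had only 6 to 8 estimated counts, and it passed the filter on low counts through the in vivo samples. Its differences from culture, in the spleen and in the PC, are thus measured from near the floor, and their size is uncertain.

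In NFKBIE-wt, 0 of 32 members were called between the spleen and culture with all libraries, as were 0% of 12349 genes. DESeq2 called 0 members, and 0 had an unadjusted p below 0.05. Without both libraries that stand apart, a setting chosen after the data were seen, Rasgrp3 (-2.86 ± 0.37), Vav2 (-1.11 ± 0.16), Malt1 (-1.07 ± 0.21) and Prkcb (-0.94 ± 0.20) were lower in the spleen than in culture, against 6.71% of all genes (3.23% lower). Between the PC and culture of NFKBIE-wt, 3 members rose (Vav3, Cd79b and Lyn) and 4 fell (Rasgrp3, Nfatc2, Plcg2 and Pik3ap1), against 21.4% of all genes (10.4% higher and 11% lower). With NFKBIE-wt culture replicate 3 set aside these were 7 and 9, against 37.7% (20.3% higher and 17.4% lower), and Rasgrp3 was at -3.82 ± 0.23. Comparisons that name the same samples share them and are not independent.

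Transcripts of the members were tested as well. In the PC 105 of the 166 passed the filter, 17 rose and 5 fell, and 13% of all transcripts were called. No member had transcripts called in both directions. Nfatc1 did not pass as a gene, but coding transcripts with 9.42% and 7.39% of its counts fell (-0.96 ± 0.11 and -0.69 ± 0.11, edgeR adjusted p = 0.00111 and 0.00488). Its transcript with 64.1% of the counts did not pass (0.16 ± 0.28). A coding Prkcb transcript with 11.6% of the counts rose (0.70 ± 0.15, edgeR adjusted p = 0.0199), although that gene did not pass either. SALMON divides reads between transcripts that share sequence, so that single transcripts are less certain than their gene.

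A list of 56 other genes of BCR signalling was read beside the members. In the PC 22 rose and 11 fell, where 43.4% of all genes were called. The largest increases were those of Lcp2, an adaptor of T cells and myeloid cells (1.52 ± 0.24), Gab1, a docking adaptor (1.33 ± 0.24), and Pik3r5, a regulatory subunit of PI3Kγ (1.28 ± 0.14), and the decreases included those of the inhibitory adaptor Dok3 (-0.45 ± 0.09) and Tab3, a partner of TAK1 (-0.42 ± 0.12). Lcp2 was at 56.4 ± 8.2 CPM (SD, n = 4) in NFKBIE-ko PC and at 19.5 ± 6.27 CPM in NFKBIE-wt PC, and at 0.169 ± 0.124 CPM (SD, n = 3) in NFKBIE-ko cultures. In the spleen 1 of 56 was called with all libraries, the calcium sensor Stim1 (-0.50 ± 0.11, edgeR adjusted p = 0.0309), against 5.48% of all genes. With NFKBIE-wt spleen replicate 4 set aside, 3 of 56 rose and 6 fell, against 12.2% of all genes. In culture the count was 0 of 54 (0 by DESeq2, and 5 at an unadjusted p below 0.05, with no share of all genes given for that rule).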

How the data were processed

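RNA had been sequenced from poly(A)-selected libraries in 22 samples of 6 groups. The authors deposited estimated counts per transcript, made with SALMON 1.8 on GRCm39 per the submitters' notes, not normalized, and 89.8% of the values above 0 are not whole. Every transcript of the table is above 0 in at least 5 samples. Transcripts were matched to GENCODE release M39, which placed 62147 of 62492 (0.619% of counts unmatched), and their estimated counts were summed per gene and rounded. Totals lay between 24036763 and 26581304 per sample, and errors are standard errors of the fit unless SD is written.

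Each comparison was fitted on its own groups with edgeR 4.0.16 in R 4.3.3 (filterByExpr, TMM factors, robust quasi-likelihood test, Benjamini-Hochberg adjustment over all genes tested), and a gene was called at an adjusted p below 0.05. Differences of genotype effects were fitted on all samples. The fit was tested on simulated data with a spread near that of the PC comparison of the genotypes. The spread was larger in the spleen, in culture and over all samples, so the simulation does not cover those fits. TPM used GENCODE lengths. The labels do not tie samples to animals, so p-values measure the spread between these samples, which may in part be technical. Members and gene lists were chosen with earlier results of these data known. Of the other pathway genes, those named are up to 3 called in each direction with the largest change (1 of them is not reported here), and marker lists are given by sums, counts and genes at 0. Alternatives were DESeq2 1.42.0, other scaling and filters, other sets of libraries, the transcript with the highest CPM, and a replicate block.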

Additional observations from a re-analysis of the deposited data

Results flagged for a closer look

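Of 128 sets of 4 samples, 12 held a sample whose gap to the nearest other exceeded Dixon's limit, where chance gives about 1 in 20. In the library labelled NFKBIE-wt spleen replicate 4, Rasgrp3 was at 198 CPM (13.8 to 29.5 in the others of its group), Malt1 at 193 CPM (84.9 to 94.5) and Vav2 at 102 CPM (47.5 to 52). In NFKBIE-wt spleen replicate 3, Cd79a was low at 581 CPM (856 to 867) and Itpr2 high at 60.1 CPM (38.1 to 41.2). In NFKBIE-ko spleen replicate 2, Cd79a was at 803 CPM (488 to 533) and Pik3r1 at 113 CPM (40.7 to 50.2).

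In the PC, NFKBIE-wt replicate 2 was high for Blk, at 69.4 CPM (56.8 to 58.4), and for Rasgrp3, at 15.8 CPM (10.3 to 11.2). NFKBIE-ko PC replicate 1 was high for Nfatc1, at 764 CPM (399 to 439), and for Blnk, at 206 CPM (182 to 185). NFKBIE-ko PC replicate 4 was highest for Ikbkg, at 53.4 CPM (50.1 to 50.6).

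Genotype effects that differed between compartments were those of Cd79a between the spleen and the PC (log2 difference -0.72) and of Fyn between the spleen and culture (3.33) and between the PC and culture (2.98).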

How the results depend on the processing

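Of 406 alternatives for 26 log2 fold changes of named members, 348 kept direction and side of the threshold, 51 kept the direction but no longer passed, 7 newly passed and 0 reversed. Counts of members called under settings that moved them by over 1.5 times, and their range with 1 library left out, were as follows, and the cause was not tested. Between the genotypes in the spleen (2 called) they were 1 beyond a log2 fold change of 1, 4 with DESeq2, 6 in a fit of all 22 samples, 10 in that fit without the libraries that stand apart, 0 with the most abundant transcript and 0 to 6 when 1 library was left out. In the PC (20) they were 3 beyond 1 and 16 to 21 with 1 library left out. In culture (0) they were 1 with DESeq2, 1 in the fit of all samples, 1 in that fit without the libraries that stand apart, and 0 to 5 with 1 library left out, 5 being without NFKBIE-wt in vitro replicate 2.

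For PC against spleen in NFKBIE-wt (9) the counts were 1 beyond 1, 5 with the most abundant transcript and 5 to 15 with 1 library left out, and in NFKBIE-ko (20) 4, 13 and 14 to 21. For spleen against culture in NFKBIE-wt (0) they were 4 without both libraries that stand apart and 0 to 0 with 1 left out, and in NFKBIE-ko (21) 4 beyond 1, 7 with the most abundant transcript and 12 to 22. For PC against culture in NFKBIE-wt (7) they were 4 beyond 1, 11 with DESeq2, 11 in the fit of all samples, 3 with the most abundant transcript and 3 to 16, and in NFKBIE-ko (21) 7 beyond 1 and 19 to 25.

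For the difference of genotype effects between spleen and PC (1) the counts were 2 without the libraries that stand apart, 0 with no filter, 3 with DESeq2 and 0 to 4 with 1 library left out. Between spleen and culture (1) they were 2 with DESeq2 and 1 to 1, and between PC and culture (1) 2 without the libraries that stand apart, 2 with DESeq2 and 1 to 3. Of the other pathway genes in the spleen (1) there were 0 beyond 1, 2 with RLE factors, 2 with a stricter filter, 8 with DESeq2, 13 in the fit of all samples, 0 with the most abundant transcript and 0 to 9, in the PC (33) 5 beyond 1, 16 in the fit of all samples, 16 with the most abundant transcript and 26 to 34, and in culture (0) 0 to 3.

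In no comparison did every pair of same-numbered samples correlate above 0.1 in their deviations (correlations of -0.264 to 0.137 for spleen, -0.124 to -0.00301 for PC and -0.0186 to 0.0849 for culture between the genotypes, and between compartments -0.151 to 0.107 for PC and spleen, -0.334 to 0.39 for spleen and culture and -0.0477 to 0.119 for PC and culture), so the numbers were not taken to pair samples. A replicate block gave, between the genotypes, 0 members for spleen, 17 for PC and 0 for culture, 5 and 0 for the PC of NFKBIE-wt against spleen and culture, 19, 15 and 23 for the NFKBIE-ko comparisons of PC with spleen, spleen with culture and PC with culture, and 0 and 23 pathway genes in the spleen and the PC. Counts were low for Vav3, at 1 to 36 estimated counts in NFKBIE-wt spleen libraries, which limits its precision. They were also low in culture, at 2 to 24 in NFKBIE-wt and 6 to 8 in NFKBIE-ko libraries.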
